A study of Danio rerio with 2 samples.

Results

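Codons read by tRNAs whose anticodon starts with adenosine were examined in zebrafish (Danio rerio) embryos at the end of gastrulation and before it. The first anticodon base, at tRNA position 34, faces the third base of the codon, and an adenosine there (A34) is modified to inosine. All entries of the deposited codon table that had a dwell time at both stages and an anticodon starting with A were taken, which gave 16 of the 61 sense codons and 8 of the 45 anticodons that read them. The remaining codons were read by anticodons starting with G (16 codons, 8 anticodons), U (14 codons, 14 anticodons) or C (15 codons, 15 anticodons), termed G34, U34 and C34.

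Wild-type TLAB embryos were harvested at bud, 10 hours post fertilisation (hpf), which closes gastrulation, or at sphere, a late blastula at 4 hpf. They were otherwise unperturbed, and whole embryos were pooled for lysis with cycloheximide and tigecycline, drugs that hold ribosomes on the mRNA, so values are averages over all cell types. Each stage was represented by 1 ribosome profiling library, so no difference between stages or codons had a replicate check and none was tested. The depth behind a dwell time cannot be read from the table, although the study describes more aligned reads for bud than for sphere.

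Inosine is made from adenosine in the tRNA by a dedicated deaminase. It pairs with C in Watson-Crick geometry and with U and A by wobble, so that a single tRNA can serve several synonymous codons. In eukaryotes the A34 tRNAs read codon boxes, sets of codons that share their first 2 bases, in which all codons that end in U, C or A encode the same amino acid. In these data the A-ending codon of such a box is assigned to a U34 tRNA, and a synonymous G-ending codon to a C34 tRNA. The deposited table assigns to each A34 anticodon its U-ending and its C-ending codon and gives both the same tRNA share. Inosine itself was not measured in the table, so the class rests on the anticodon sequence.

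The 8 anticodons and their codons are shown 5′ to 3′ because every result below is sorted by them. The capital in the anticodon is base 34 and the capital in a codon is the third base that it faces.
tRNA-Ala Agc: gcU and gcC
tRNA-Arg Acg: cgU and cgC
tRNA-Ile Aau: auU and auC
tRNA-Leu Aag: cuU and cuC
tRNA-Pro Agg: ccU and ccC
tRNA-Ser Aga: ucU and ucC
tRNA-Thr Agu: acU and acC
tRNA-Val Aac: guU and guC

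Dwell time is the relative time that a ribosome spends with a codon in its A site, where the incoming tRNA is decoded. It is a ratio around 1 within a library, and a higher value means slower decoding. The 16 A34-read codons spanned from 0.831 to 1.16 in bud and from 0.852 to 1.12 in sphere. Both extremes in bud were inosine-decoded codons of aliphatic amino acids, Val-GUU at the short end and Leu-CUU at the long end. In sphere the shortest was again Val-GUU, and the longest was Pro-CCU.

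Inosine-decoded codons were present among the 10 fastest codons and absent from the 10 slowest, though not from the ranks just after these. Of the 10 shortest dwell times of all sense codons, 5 in bud and 6 in sphere belonged to A34-read codons. The class made up 26.2% of all sense codons, and such a list holds 16.4% of them by definition. None of the 10 longest belonged to A34-read codons at either stage (0 codons). Just below that cut, counted from the longest, Leu-CUU ranked 12 in bud, and Leu-CUC, Pro-CCU and Arg-CGC ranked 14 to 16. In sphere Pro-CCU ranked 13, and Leu-CUU, Arg-CGC and Leu-CUC ranked 14 to 16. The G34-read codons, also 26.2% of all, were likewise absent from the 10 longest (0 codons). They held 3 of the 10 shortest in bud and 1 in sphere. Val-GUU, Thr-ACC, Ile-AUC, Ile-AUU and Val-GUC were on the list of shortest dwell times at both stages. Thr-ACU, at 0.906 in bud and 0.895 in sphere, was on it in sphere.

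A low dwell time was nevertheless no general property of these codons. In bud 8 of the 16 were below 1, and in sphere 8 of the 16, beside 49.2% of all sense codons at each stage. Their median was 0.989 in bud, against 1.01 for the 45 codons of the other classes. In sphere it was 0.983, against 1.00 for the other classes. The difference in median log2 dwell time between the A34 class and the rest was -0.024 in bud and -0.028 in sphere, and in sphere it was 0.0095 when any 1 of Ile-AAU, Ser-AGA, Thr-AGU and Val-AAC was left out. The A34 median thus lay above that of G34 (0.961 in bud and 0.971 in sphere) and below those of U34 (1.02 in bud and 1.01 in sphere) and C34 (1.07 in bud and 1.08 in sphere).

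The 16 codons divided by amino acid. The 3 A34 anticodons with the shortest dwell times, as the geometric mean of both codons, were Val-AAC (0.854 in bud and 0.857 in sphere), Ile-AAU (0.863 in bud and 0.886 in sphere) and Thr-AGU (0.879 in bud and 0.877 in sphere). All of them serve amino acids with a branched side chain at the β-carbon. Ser-AGA was intermediate, at 0.973 in bud and 0.962 in sphere. Ala-AGC came next, at 1.02 in bud and 1.01 in sphere.

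The longest dwell times were those of Leu-AAG (1.15 in bud and 1.10 in sphere), Pro-AGG (1.09 in bud and 1.09 in sphere) and Arg-ACG (1.06 in bud and 1.06 in sphere). The order of the 8 anticodons was the same at both stages except that Ile-AAU and Thr-AGU changed places. Those neighbours were apart by 0.026 on the log2 scale in bud and 0.015 in sphere. The widest gap lay below Ser-AGA, with 0.15 on the log2 scale to Thr-AGU in bud and 0.12 to Ile-AAU in sphere. With 1 library a stage the order of close neighbours has no measured error.

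Single codons showed how far this held. Leu-CUU had a dwell time of 1.16 in bud and 1.12 in sphere, and Leu-CUC had 1.14 in bud and 1.08 in sphere. Pro-CCU had 1.13 in bud and 1.12 in sphere, and Pro-CCC had 1.0496 in bud and 1.0562 in sphere. The leucine and proline codons were thus above 1 throughout.

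Arg-CGC had 1.13 in bud and 1.09 in sphere, whereas Arg-CGU had 1.00 in bud and 1.02 in sphere. Ala-GCU had 1.01 in bud and 1.02 in sphere, and Ala-GCC had 1.04 in bud and 1.00 in sphere. The alanine codons stayed close to the centre of the scale.

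Ser-UCU had 0.979 in bud and 0.966 in sphere, and Ser-UCC had 0.968 in bud and 0.958 in sphere. Thr-ACC had 0.853 in bud and 0.859 in sphere and ranked 60 among 61 codons, counted from the longest, at both stages. Val-GUU, at 0.831 in bud and 0.852 in sphere, ranked 61 at both. Every codon of serine, threonine, valine and isoleucine in this class was below 1 at both stages.

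Both codons of a pair share the tRNA, the amino acid and every base but the third. The transcripts and sequence surroundings in which they lie were not matched. The U-ending codon is read by an inosine-uridine wobble and the C-ending codon by an inosine-cytidine pair. The U-ending codon had the longer dwell time in 5 of 8 pairs in bud and in 5 of 8 in sphere. The median U-over-C ratio of dwell times was 0.017 on the log2 scale in bud and 0.017 in sphere.

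The pairs differed in direction by amino acid. Pro-CCU exceeded Pro-CCC by 0.11 on the log2 scale in bud and 0.079 in sphere. Thr-ACU exceeded Thr-ACC by 0.086 in bud and 0.060 in sphere, and Leu-CUU exceeded Leu-CUC by 0.030 in bud and 0.042 in sphere. The U-ending codon was the slower one in each of these.

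The arginine pair ran the other way, with a U-over-C log2 ratio of -0.17 in bud and -0.10 in sphere, the widest difference in the class at both stages. Val-GUU was below Val-GUC, with a log2 ratio of -0.079 in bud and -0.019 in sphere. In the serine pair the ratio was 0.016 in bud and 0.011 in sphere. The direction was the same at both stages in 6 of the 8 pairs, and alanine and isoleucine were the exceptions. The longer dwell time of a pair exceeded the shorter by at least 5% in 4 pairs in bud (Arg, Pro, Thr and Val) and in 2 in sphere (Arg and Pro). The 8 G34 pairs gave the same counts, 4 in bud and 2 in sphere. Among them the U-ending codon had the longer dwell time in 2 of 8 pairs at each stage, and the direction was the same at both stages in 8 of 8.

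Both codons of an A34 anticodon tended to be fast or slow together. The log2 dwell times of U-ending and C-ending codons gave a Pearson's r of 0.859 in bud and 0.920 in sphere over the 8 pairs, each pair sharing its first 2 bases, amino acid and tRNA. The 8 pairs of G34 anticodons, which share the same features, gave -0.041 in bud and -0.182 in sphere. The means of the A34 anticodons had a standard deviation (SD) of 0.17 on the log2 scale in bud and 0.15 in sphere, against a median absolute difference within pairs of 0.060 in bud and 0.047 in sphere. In the G34 class the SD of anticodon means was 0.049 in bud and 0.027 in sphere, and the median absolute difference within pairs 0.070 in bud and 0.044 in sphere. These are descriptions across codons, which are not replicates.

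The A34-read codons were next compared with the synonymous codons of their own box, where the amino acid is held constant. The A-ending codon is assigned to the U34 tRNA and the G-ending codon to the C34 tRNA. For isoleucine there is no synonymous G-ending codon, since AUG encodes methionine, so 7 boxes were available for the second comparison.

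In bud, both A34-read codons had a shorter dwell time than the A-ending codon in 8 of 8 boxes, and in sphere in 7 of 8. The count in bud includes close values, Ser-UCU at 0.9786 against Ser-UCA at 0.9799 and Ala-GCC at 1.0388 against Ala-GCA at 1.0446. The median difference of A34-read from A-ending codons was -0.19 on the log2 scale in bud and -0.23 in sphere. It was widest for isoleucine, where Ile-AUA had a dwell time of 1.21 in bud and 1.23 in sphere, 1.40-fold above the mean of its A34-read synonyms in bud and 1.39-fold in sphere. Leu-CUA, at 1.35 in bud and 1.33 in sphere, exceeded its A34-read synonyms by 1.17-fold in bud and 1.21-fold in sphere.

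Serine stood at the other end. Ser-UCA had 0.980 in bud and 0.975 in sphere, only 1.01-fold above the A34-read codons at both stages. The exception to the direction was alanine in sphere. The A34-read alanine codons had a mean of 1.02 and Ala-GCA had 1.04 in bud, whereas in sphere the A34-read codons had 1.01 and Ala-GCA had 0.941.

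Against the G-ending codons, both A34-read codons had the shorter dwell time in 6 of 7 boxes in bud and in 6 of 7 in sphere. The median difference of A34-read from G-ending codons was -0.26 in bud and -0.22 in sphere. Thr-ACG, at 1.23 in bud and 1.28 in sphere, exceeded the A34-read threonine codons by 1.40-fold in bud and 1.46-fold in sphere. Ser-UCG, at 1.33 in bud and 1.35 in sphere, exceeded the A34-read serine codons by 1.37-fold in bud and 1.40-fold in sphere.

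Leucine was the exception at both stages. Leu-CUG had a dwell time of 1.07 in bud and 1.02 in sphere and was below both A34-read leucine codons, with a difference of A34-read from G-ending codons of 0.11 in bud and 0.11 in sphere.

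The supply of A34 tRNAs was taken from the authors' shares of tRNA reads per anticodon, measured in separate tRNA libraries. The study describes such shares as averages over the replicate tRNA libraries of a stage. They are given as 1 value per anticodon and stage without an error. Counting each anticodon once, the 8 A34 anticodons together held 22.5% of the pool in bud and 22.9% in sphere. The single shares ran from 1.33% to 4.64% in bud and from 1.60% to 3.78% in sphere. Of the 8 shares, 6 in bud and 6 in sphere lay above the median of all 45 anticodons, as 48.9% of all anticodons did. All G34 shares except that of Ser-GCU also lay above it at both stages. The median share was 2.80% in bud and 2.97% in sphere for A34, and 2.87% and 2.74% for G34. None of the A34 shares was among the 10 lowest at either stage (0 anticodons), a list that holds 10 of 45 anticodons by definition. The G34 anticodons were likewise absent from it, their lowest share, that of Ser-GCU, ranking 30 in bud and 31 in sphere. Together the G34 anticodons held 25.0% of the pool in bud and 23.9% in sphere. The highest A34 share exceeded the lowest 3.48-fold in bud and 2.37-fold in sphere. The range was similar for G34 anticodons, 4.15-fold in bud and 3.58-fold in sphere. For U34 anticodons it was 24.1-fold in bud and 18.4-fold in sphere, and for C34 anticodons it was 27.6-fold in bud and 34.8-fold in sphere.

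Arg-ACG was the most abundant A34 tRNA, with 4.64% of the pool in bud and 3.78% in sphere. Ala-AGC held 3.47% in bud and 3.39% in sphere, Ile-AAU 3.37% in bud and 3.14% in sphere, and Pro-AGG 3.08% in bud and 3.69% in sphere. Thr-AGU followed with 2.52% in bud and 2.81% in sphere, and Ser-AGA with 2.29% in bud and 2.74% in sphere.

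The lowest shares were those of Val-AAC (1.79% in bud and 1.76% in sphere) and Leu-AAG (1.33% in bud and 1.60% in sphere). These neighbours in supply lay at opposite ends of the dwell time scale. Across the 8 anticodons, Spearman's rank correlation between dwell time and tRNA share was 0.0476 in bud and 0.238 in sphere. In the G34 class, also of 8 anticodons, it was 0.476 in bud and 0.381 in sphere. For U34 it was -0.543 in bud and -0.367 in sphere, and for C34 -0.629 in bud and -0.443 in sphere. Over all 45 anticodons it was -0.536 in bud and -0.446 in sphere. Within the A34 class the value rested on single anticodons. In bud it was negative when any 1 of Ala-AGC, Arg-ACG, Ser-AGA, Thr-AGU and Val-AAC was left out, with -0.179 without Val-AAC. Without Leu-AAG it was 0.571 in bud and 0.857 in sphere. The points share 1 footprint library and 1 averaged set of tRNA shares per stage, and the correlations are descriptions over few anticodons.

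Within their boxes, A34 anticodons usually held the largest share of tRNA. This was the case in 7 of 8 boxes in bud and in 6 of 8 in sphere, and their median part of the tRNA of a box was 58.2% in bud and 55.7% in sphere. The A34 tRNA exceeded the U34 tRNA in all 8 boxes at both stages, by 1.38-fold to 5.41-fold in bud and by 1.15-fold to 7.95-fold in sphere.

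Leucine was again the exception. Leu-CAG held 1.43% of the pool in bud and 2.06% in sphere, above Leu-AAG at both stages. In sphere Ala-AGC, at 3.39%, was also marginally below its C34 counterpart Ala-CGC, at 3.42%. The leucine box was thus the one box in which the G-ending codon had a shorter dwell time than the A34-read codons and in which the C34 tRNA exceeded the A34 tRNA at both stages. Ala-GCG had a longer dwell time than the A34-read alanine codons, 1.24 in bud and 1.16 in sphere, although the supplies of Ala-CGC and Ala-AGC were close. In the threonine box Thr-CGU held 1.34% in bud and 2.41% in sphere, not far below Thr-AGU in sphere, while Thr-ACG was the slowest codon of its box.

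Dwell times of A34-read codons changed little between the stages. Of the 16, 9 had a higher value in bud and 7 a lower one, while 42.6% of all sense codons were higher in bud. Over the 45 codons of the other classes the median log2 ratio of bud to sphere was -0.018. By class it was 0.0081 for U34, -0.019 for G34 and -0.025 for C34. For the A34-read codons it was 0.016. The higher stage exceeded the lower by at least 5% in 1 codon that was higher in bud, Leu-CUC with a log2 ratio of bud to sphere of 0.074, and in 1 that was lower in bud, Ile-AUC with -0.072. Of all sense codons, 6.56% were higher in bud and 13.1% lower in bud by that factor. Log2 dwell times of the 16 codons at bud and sphere gave a Pearson's r of 0.981, beside 0.952 over all 61 sense codons.

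The leucine pair shifted together. Leu-CUU was higher in bud by 0.062 on the log2 scale and Leu-CUC by 0.074. The direction was shared by the leucine codons of other classes. Leu-CUG and Leu-UUG, read by C34 tRNAs, were higher in bud by 0.066 and 0.084. Leu-CUA and Leu-UUA, read by U34 tRNAs, were higher by 0.020 and 0.0096. The A34-read arginine codons moved in opposite directions, with log2 ratios of -0.029 for Arg-CGU and 0.043 for Arg-CGC. The median absolute log2 ratio of the class was 0.023. The A-ending and G-ending codons of the same arginine box were lower in bud. Arg-CGA had 1.21 in bud and 1.31 in sphere, and Arg-CGG had 1.24 in bud and 1.36 in sphere. Within this box the distance of the A34-read codons from their synonyms was therefore smaller in bud. The difference from the A-ending codon was -0.19 in bud and -0.31 in sphere.

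Changes in the A34 tRNA shares stayed under the set limit, some of them narrowly. In none did the higher stage exceed the lower by 25% or more (0 anticodons), a difference that 15.6% of all anticodons showed with the higher value in bud and 15.6% with the lower value in bud. In the G34 class 1 of 8 anticodons did so, Asn-GUU, which was 1.29-fold higher in bud. By that factor, 3 of the 14 U34 anticodons were higher in bud and 2 lower. Of the 15 C34 anticodons, 3 were higher and 5 lower. Of the 8 A34 shares, 4 were higher in bud and 4 lower by any amount, and 44.4% of all anticodons were higher in bud. Arg-ACG had the largest gain, 1.23-fold or 0.29 on the log2 scale, and Ile-AAU was 1.08-fold higher in bud. Ala-AGC and Val-AAC were each 1.02-fold higher in bud.

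Leu-AAG was lower in bud with a log2 ratio of -0.26, as were Pro-AGG with -0.26 and Ser-AGA with -0.26, and Thr-AGU had -0.15. Leu-AAG, whose share was the lowest of the class at both stages, combined this with the largest log2 ratio of mean dwell time in bud to sphere of the 8 anticodons, 0.068. Arg-ACG, with the largest gain in share, had a log2 ratio of mean dwell time of 0.0069. Across the 8 anticodons, Spearman's rank correlation between bud-to-sphere ratios of dwell time and of tRNA share was -0.405. Over all 45 anticodons it was close to this, at -0.414. The other classes gave -0.433 for U34, -0.207 for C34 and -0.048 for G34. Within the A34 class it was -0.107 without Leu-AAG and -0.607 without Arg-ACG.

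Relative to the other tRNAs of the same box, A34 tRNAs held more of the supply in bud than in sphere in 7 of 8 boxes, with gains of 1.12 to 3.98 percentage points. The serine box was the exception, in which Ser-AGA held 73.1% of the box in bud and 85.0% in sphere. There the U34 tRNA Ser-UGA had 0.582% of the pool in bud and 0.344% in sphere, and the C34 tRNA Ser-CGA had 0.262% in bud and 0.139% in sphere. The dwell times of Ser-UCA and Ser-UCG differed by less than 5% between the stages. In the threonine box the gain was 3.79 points, although Thr-AGU itself had a lower share of the whole pool in bud, since Thr-CGU was lower in bud by a larger factor, with a log2 ratio of bud to sphere of -0.84.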

How the data were processed

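Footprint reads were trimmed by the authors (Cutadapt), cleared of ribosomal RNA (Bowtie) and aligned uniquely to the zebrafish genome (STAR 2.6.1c). The deposited dwell times are a linear ratio per A-site codon, estimated by the authors with the generalised linear model of Scikit-ribo from matched RNA-seq, without folding terms. No errors are given. Being relative, they cannot show a change shared by all codons. The tRNA shares are a fraction of uniquely aligned tRNA reads per anticodon, obtained by the authors with mim-tRNAseq from tRNA libraries not analysed here, and are repeated for each codon of an anticodon.

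Codons were matched to amino acids by the standard genetic code and written with U. Of 62 rows, 1 initiator entry without dwell times was left out. Values were compared as log2 ratios with pandas 2.3.3 and SciPy 1.17.1. On simulated dwell times without measurement noise, the set U-over-C ratio, stage change and number of codons were recovered. The other comparisons were not checked in this way. Changes were counted where the higher value exceeded the lower by 5% for dwell times and 25% for tRNA shares. Anticodon dwell times are geometric means of their codons. With 1 library per stage no test was possible and no p-value was computed. All 16 codons and 8 anticodons were named, and synonyms of their boxes or class extremes beside them. The class, its comparisons and the thresholds were chosen with earlier results of these data known. Footprint abundance per transcript was not used, because the transcript IDs are not paired with gene names or coding sequences in the tables used here, so a planned comparison of genes for inosine formation and of codon content was not run. No gene coordinates are given, since no genome was used.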

Additional observations from a re-analysis of the deposited data

Results flagged for a closer look

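In 2 pairs of A34-read codons the U-ending and C-ending codon exchanged their order between the stages, each stage being 1 library, and the difference between stages was not tested. For Ala-AGC the U-over-C ratio of dwell times, on the log2 scale, was -0.042 in bud and 0.022 in sphere. For Ile-AAU it was 0.018 in bud and -0.052 in sphere.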

How the results depend on the processing

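No paired analysis was possible because single libraries stood for the stages, and for the same reason no library could be left out. Values were counted as moved past 5% for dwell times, 25% for tRNA shares and 0.1 for correlations. Of 27 alternatives other than leaving out an anticodon, 20 stayed within these limits, 4 moved and 3 changed sign. The difference of A34-read codons from the other classes moved to -0.29 in bud and -0.24 in sphere within the 8 boxes alone. By construction this leaves out the G34 codons and the U34 and C34 codons of other boxes. The 8 U34 and 7 C34 codons kept had bud medians of 1.11 and 1.24. All 14 U34 and all 15 C34 codons had 1.02 and 1.07. As a difference of means over all codons, the class difference was -0.099 in sphere. The mean U-over-C log2 ratio in bud was -0.0044. The relation of dwell time to tRNA share in bud was -0.028 with log2 shares and 0.174 with inverse shares (opposite sign by construction), and in sphere -0.0864 with inverse shares. The cause was not tested.

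Leaving out each A34 anticodon in turn gave ranges of -0.047 to -0.0014 in bud and -0.060 to 0.0095 in sphere for the class difference, the value above 0 coming without Ile-AAU, Ser-AGA, Thr-AGU or Val-AAC, 4 of the 8 anticodons. Ranges for the median U-over-C ratio were 0.016 to 0.018 in bud and 0.011 to 0.022 in sphere. The summed tRNA share lay between 17.9% and 21.2% in bud and between 19.1% and 21.3% in sphere, smaller by construction. Spearman's rank correlation between dwell time and tRNA share lay between -0.179 and 0.571 in bud and between 0.107 and 0.857 in sphere, and that between their changes between -0.607 and -0.107. The median change in dwell time lay between 0.0062 and 0.018. Dividing each stage by its geometric mean gave 10 A34-read codons higher and 6 lower in bud, where 49.2% of all sense codons were higher. By at least 5%, 1 A34-read codon was higher and none was lower (0 codons). Of all 61 sense codons, 5 were higher and 6 lower by that factor.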

Other observations

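After the values had been seen, the 16 codons were sorted by their first base. They were also sorted by their second base and by the number of G or C in the first 2. The 6 A34-read codons that start with C (Leu, Pro and Arg) had dwell times from 1.00 to 1.16 in bud and from 1.02 to 1.12 in sphere. The 4 that start with A (Ile and Thr) lay between 0.853 and 0.906 in bud and between 0.859 and 0.902 in sphere, with no overlap. The 4 that start with G (Ala and Val) spanned from 0.831 to 1.04 in bud and from 0.852 to 1.02 in sphere, which covers the values of the A group and, in bud, reaches those of the C group. Within this first base the values separated by amino acid, with a mean of 0.854 in bud and 0.857 in sphere for Val-AAC and of 1.02 in bud and 1.01 in sphere for Ala-AGC. The 2 codons that start with U (Ser) lay between 0.968 and 0.979 in bud and between 0.958 and 0.966 in sphere. By second base the groups overlapped, with U from 0.831 to 1.16 and C from 0.853 to 1.13 in bud. By number of G or C, the 2 codons with 0 (Ile) lay between 0.858 and 0.869 in bud. In bud the 6 with 2 (Ala, Arg and Pro) lay between 1.00 and 1.13, and the 8 with 1 spanned from 0.831 to 1.16. Which of these sorts the values follow was not tested. Codons of the other classes had a median of 1.12 in bud and 1.09 in sphere when they started with C, and of 0.953 in bud and 0.985 in sphere when they started with A. Their ranges overlapped widely. Those starting with C spanned from 0.905 to 1.35 in bud and from 0.926 to 1.36 in sphere. Those starting with A spanned from 0.886 to 1.23 in bud and from 0.942 to 1.28 in sphere.

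Among the boxes in which any base in the third position encodes the same amino acid, glycine alone is read by a G34 and not an A34 tRNA, and it was looked at for comparison. There the G34-read codons had a mean dwell time of 0.948 in bud and 0.978 in sphere, above the A-ending codon Gly-GGA at 0.925 in bud and 0.931 in sphere and below the G-ending codon Gly-GGG at 1.04 in bud and 1.08 in sphere. Of the G34-read codons, Gly-GGU had 0.901 in bud, below Gly-GGA, and 0.940 in sphere, above it, and Gly-GGC had 0.999 in bud and 1.02 in sphere. The G34 tRNA of this box, Gly-GCC, held 2.35% of the pool in bud and 2.49% in sphere, below the U34 tRNA Gly-UCC with 3.45% in bud and 3.49% in sphere.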
